A study of Mus musculus with 6 samples.

Results

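The angiopoietin-Tie pathway was followed through 5 genes: the ligands Angpt1 and Angpt2, the receptors Tek (Tie2) and Tie1, and the receptor phosphatase Ptprb (VE-PTP). They were chosen by gene name in the authors' deposited table, and all 5 were found there, among 26071 genes in that table and 49315 gene IDs in the count files. RNA came from endothelial cells of 4T1 tumours, a transplantable mouse mammary carcinoma. 4T1 cells were placed in the inguinal mammary fat pad of Balb/c females aged 8 weeks and left to grow for 2 weeks. Every mouse then received 1E12 gold nanoparticles, 50 nm across and carrying 5 kDa methoxy-polyethylene glycol and Cy5, through the tail vein 1 hour before harvest, so cells of both groups come from injected animals aged 10 weeks. CD45+ cells were depleted, CD31+ cells were enriched, and flow sorting gave a nanoparticle-positive (NP+) and a nanoparticle-negative (NP-) fraction. The 3 NP+ and 3 NP- libraries are 1 pair from each of 3 tumours, called MET-106, MET-107 and MET-108.

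Tie2 is a receptor tyrosine kinase of endothelial cells. Angiopoietin-1, made mainly by mural and other perivascular cells, activates it and steadies the vessel wall. Angiopoietin-2, made by endothelial cells and stored in their Weibel-Palade granules, can act as a context-dependent antagonist, and its gene is known as a target of FOXO1, a transcription factor that signalling through Tie2 and Akt holds back. Tie1 is a receptor that has no classical ligand of its own and modulates Tie2, while VE-PTP takes phosphate off Tie2 and sits in a complex with VE-cadherin. In tumours, angiopoietin-2 is known for its rise in remodelling and sprouting vessels.

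Total gene counts ran from 41830256 to 58089600 in NP+ libraries and from 20856410 to 44694267 in NP- libraries, deep enough that the 4 endothelial members had at least 8150 counts in every library. Levels are CPM values, counts scaled to a common library size with TMM factors, and are given per kb of exon where genes are compared. Values per library are given in the order MET-106, MET-107, MET-108, and means are ± SD (n = 3). The 10 endothelial markers were present in all libraries, with a summed level of 11176 to 12698 CPM in NP+ and 7351 to 9648 CPM in NP-. Pecam1, the CD31 gene, averaged 3291 ± 500.2 CPM in NP+ cells against 2353 ± 449 in NP- cells. Ptprc, the CD45 gene, averaged 4.48 ± 0.997 CPM in NP+ cells against 13.9 ± 10.4 in NP- cells. The NP- library of MET-106 stands apart: its 6 fibroblast markers summed to 3769 CPM, against 56.5 to 128 CPM in the other NP- libraries and 13.4 to 56.1 CPM in NP+. In bulk samples of this kind, fewer cells of a type and less RNA per cell cannot be told apart.

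On the TMM scale, Angpt2 and Ptprb were higher in NP+ cells in 3 of 3 tumours, at 1.83 and 1.6 times their NP- means. Angpt1, a trace transcript here, was lower in MET-106 and MET-107, while in MET-108 it held 20 counts in NP+ and 22 in NP-, and the 2 groups overlapped for Tek and Tie1. At an adjusted p under 0.05 in edgeR's quasi-likelihood test, 0 of the 5 members passed, where 0.0292% of the 23989 genes tested did (0.0125% higher and 0.0167% lower in NP+). At an unadjusted p under 0.05, 2 members were higher and 1 was lower, against 8.01% and 15.4% of all genes tested. The NP+ and NP- libraries did not overlap for 2 members, both higher in NP+, where 13.3% of all genes were higher without overlap. Angpt2 and Ptprb thus had the same direction in all 3 tumours on the TMM scale, but no size reached the threshold in this test. Scaled by total gene counts, Ptprb in MET-107 was lower in NP+ (42221 of 58089600 counts, against 17361 of 20856410 in NP-). The groups of both genes then overlapped.

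**Figure D1:**
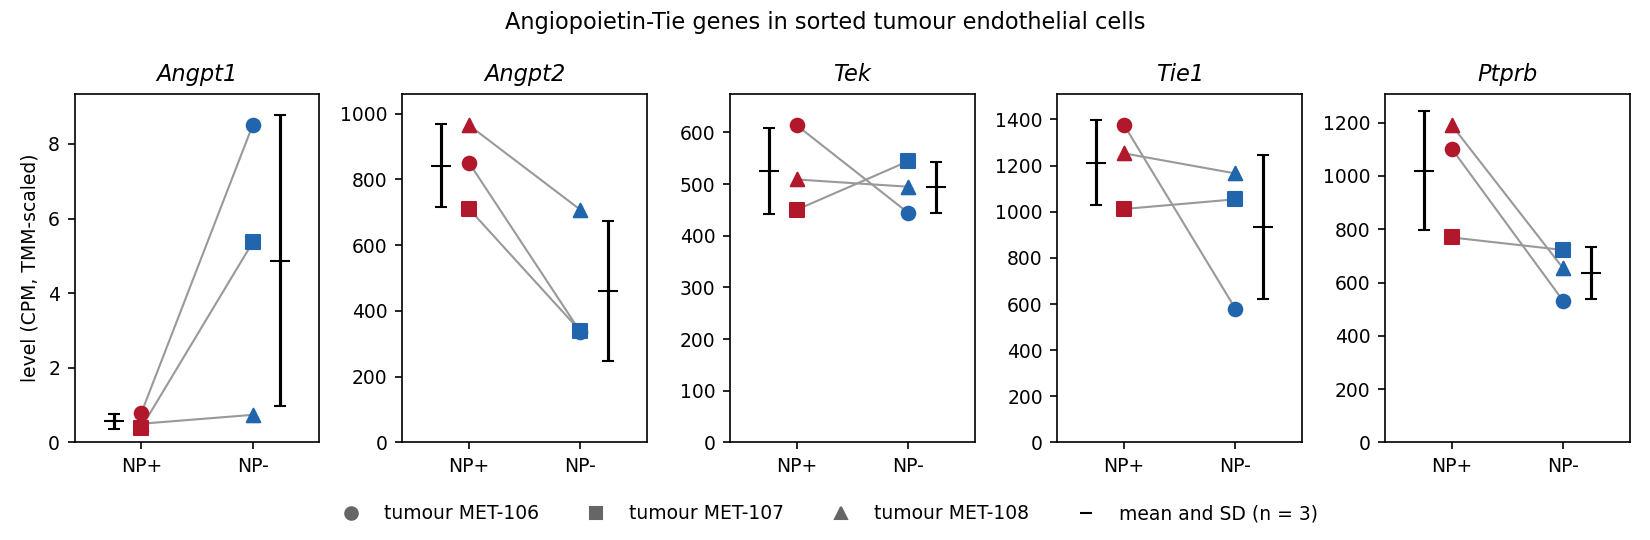
Levels of the 5 angiopoietin-Tie genes (CPM, TMM-scaled, each panel from 0) in NP+ libraries (left) and NP- libraries (right), with grey lines joining the 2 libraries of a tumour and black bars for mean ± SD. Angpt2 and Ptprb lie higher in NP+ in all 3 tumours, while the NP- points of Angpt1 spread from 0.74 to 8.5 CPM.

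Per length, the pathway's endothelial genes were among the most abundant transcripts of these cells. In NP+ libraries Tie1 averaged 247 ± 37.6 CPM per kb, Angpt2 228 ± 34.5, Tek 111 ± 17.6 and Ptprb 85.6 ± 18.6, while Angpt1 stood at 0.133 ± 0.0483 CPM per kb. In NP- libraries the means were 189.8 ± 63.3 for Tie1, 125 ± 57.9 for Angpt2, 105 ± 10.4 for Tek, 53.4 ± 8.07 for Ptprb and 1.14 ± 0.917 CPM per kb for Angpt1. The level of Tie1 was above that of 99% of tested genes in both groups, and that of Angpt1 above 19.7% in NP+ and 42.8% in NP-. Tie1 and Angpt2 did not differ beyond their spread in NP+, since Angpt2 was the higher of the pair in MET-108 (261 against 255 CPM per kb). Nor did Angpt2 and Tek in NP-, where Tek was higher in MET-106 and MET-107 and Angpt2 in MET-108.

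Of the ligands, Angpt2 (ENSMUSG00000031465) stood at 851, 710.5 and 965 CPM in NP+ libraries, against 337, 339 and 708 CPM in NP- libraries. Every NP+ library was above every NP- library under TMM. The NP- library of MET-108 came close to the lowest NP+ one, and lay above it with total counts. The ratio of NP+ to NP- was therefore 2.52 in MET-106 and 2.1 in MET-107, and 1.36 in MET-108. The mean was 842 ± 127 CPM in NP+ cells against 461 ± 214 in NP- cells, with a log2 fold change of 0.87 (SE 0.31, unadjusted p = 0.0198, adjusted p = 0.16, edgeR). Leaving out the NP- library of MET-108 lowered the NP- mean to 338 CPM and brought the log2 fold change to 1.34 (adjusted p = 0.033, in a fit that called 1.1% of all genes). Without that of MET-106 it was 0.74 (adjusted p = 0.146, edgeR), and without that of MET-107 it was 0.70 (adjusted p = 0.329). Angpt2 lies on GRCm38 chromosome 8 from 18690263 to 18741562, minus strand, with 3690 bases of exon in 10 blocks, inside the body of Mcph1 on the other strand. The exons of the 2 genes share 0 bases, and Mcph1, a DNA-damage response gene, averaged 26.6 ± 3.98 CPM in NP+ cells against 21.3 ± 4.86 in NP- cells.

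Angpt1 (ENSMUSG00000022309) held 29, 22 and 20 counts in NP+ libraries, against 407, 129 and 22 counts in NP- libraries. As CPM these were 0.796, 0.401 and 0.502 in NP+ and 8.5, 5.36 and 0.74 in NP-. The groups overlap, because the NP- library of MET-108 was as low as the NP+ libraries, with a Poisson 95% interval of 13.8 to 33.3 counts, against 12.2 to 30.9 counts in the NP+ library of that tumour (counting error only). The mean was 0.566 ± 0.205 CPM in NP+ cells against 4.87 ± 3.9 in NP- cells, so the NP- mean was 8.6 times the NP+ mean, with a log2 fold change of -3.10 (SE 0.89, unadjusted p = 0.00723, adjusted p = 0.134, edgeR). The NP- mean was 3.05 CPM without the library of MET-106, 4.62 CPM without MET-107 and 6.93 CPM without MET-108. In the edgeR fit without the NP- library of MET-108 the log2 fold change was -3.59 (adjusted p = 0.0391, in a fit that called 1.1% of all genes). Without that of MET-106 it was -2.36 (adjusted p = 0.123, edgeR), and without that of MET-107 it was -3.02 (adjusted p = 0.258).

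Markers of other cells are set beside Angpt1 here. The 10 pericyte markers summed to 117, 114 and 93.7 CPM in NP+ libraries, against 815, 242 and 147 CPM in NP- libraries and, like Angpt1, were highest in MET-106 and lowest in MET-108 among the NP- libraries. Of these 10, 7 were lower in NP+ at an unadjusted p under 0.05 in edgeR's test, where 15.4% of all genes were, and each of the 10 had counts. Abundant members of the list lacked this pattern and weigh on the sums. Kcnj8 stood at 27.3, 31.1 and 30.3 CPM in NP+ libraries, against 38.8, 16.5 and 28.1 CPM in NP- libraries. Abcc9 stood at 30.5, 40.6 and 46.7 CPM in NP+, against 48.2, 38.5 and 56.7 CPM in NP-. Pdgfrb, the pericyte growth factor receptor gene, stood at 9.17, 6.14 and 1.25 CPM in NP+ libraries, against 92.3, 39.7 and 4.84 CPM in NP- libraries. The fibroblast markers summed to 56.1, 40.2 and 13.4 CPM in NP+ libraries, against 3769, 128 and 56.5 CPM in NP- libraries. The 6 platelet markers summed to 9.28, 8.85 and 9.18 CPM in NP+ libraries, against 16, 8.56 and 5.25 CPM in NP- libraries, with 0 of 3 tested past an unadjusted p of 0.05, and Gp1bb had counts in the NP- library of MET-106 alone. The 8 macrophage markers summed to 27.3, 29.6 and 20.4 CPM in NP+ libraries, against 129, 93 and 48.1 CPM in NP- libraries. Of these 8, 6 were lower at an unadjusted p under 0.05 in edgeR's test, where 15.4% of all genes were. The part of these cells in the Angpt1 difference was not tested.

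The low Angpt1 values also have to be read against stray counts. Olfactory receptor genes, which endothelial cells are not known for using, had a mean count density that would give a gene of Angpt1's length 0.137, 0.416 and 0.241 CPM in NP+ libraries, against 0.361, 1.79 and 1.42 CPM in NP- libraries. Angpt1 was 5.82, 0.963 and 2.08 times that level in NP+ and 23.6, 2.99 and 0.522 times in NP-. The NP- library of MET-106 thus stood far above it, and the NP+ library of MET-107 and the NP- library of MET-108 were below it. With that level taken off, MET-108 had 10.4 counts in NP+ and -20.1 in NP-, so the direction in that tumour turns. This level is a mean over 1106 genes without a spread between them, and is given only as a scale. Angpt1 lies on chromosome 15 from 42424727 to 42676977, minus strand, with 4256 bases of exon in 9 blocks. The antisense gene Gm17473 shares 283 of these bases (6.65%). Gm17473 had 0 counts in each NP+ library and 15, 40 and 3 counts in the NP- libraries, and without strand the reads of the pair cannot be told apart there.

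**Figure D2:**
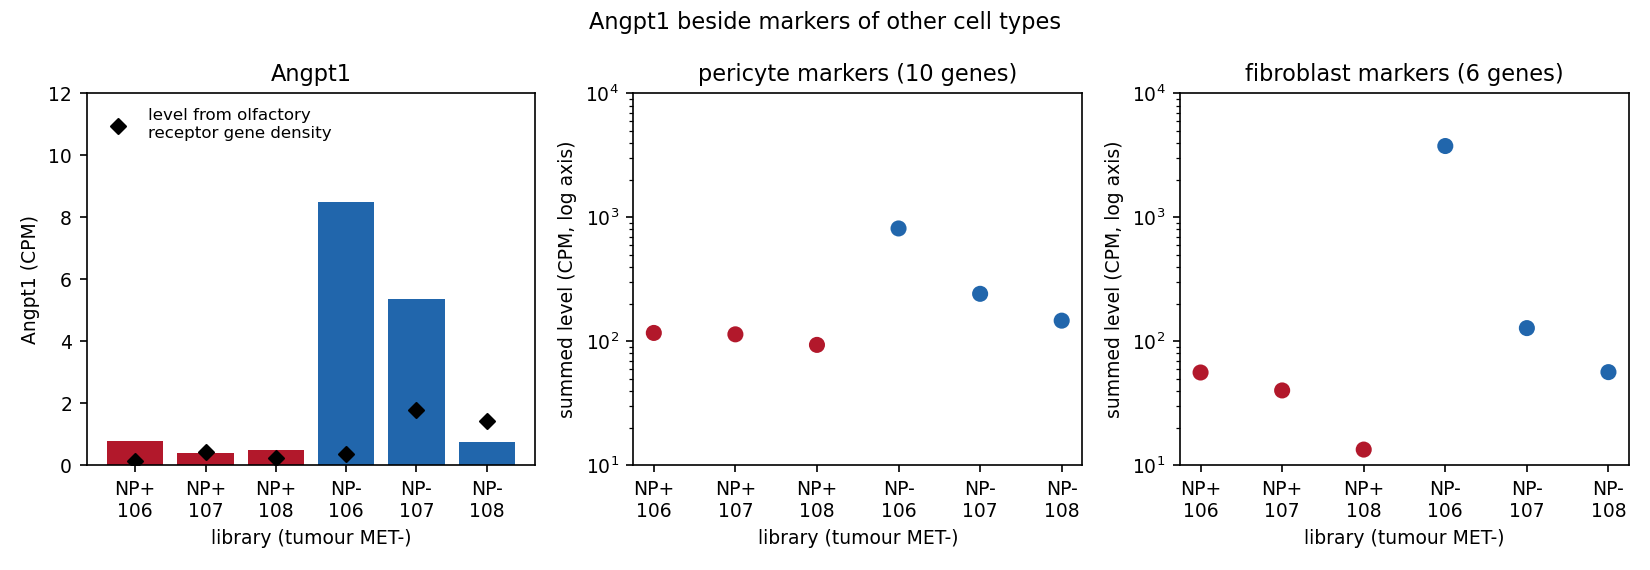
Left, Angpt1 (CPM, bars from 0) per library with black diamonds for the level that the count density of olfactory receptor genes gives for its length; middle and right, summed levels of 10 pericyte and 6 fibroblast markers on a log axis. The NP- library of MET-106 is highest in all 3 panels, with 8.5, 815 and 3769 CPM.

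Of the receptors, Tek (ENSMUSG00000006386), the angiopoietin receptor itself, had the fold change nearest to 0 of the 5 members. It stood at 614, 450.3 and 509 CPM in NP+ libraries, against 445, 544 and 495 CPM in NP- libraries. The groups overlap, with NP+ higher in MET-106 and MET-108 and lower in MET-107. The mean was 525 ± 83.2 CPM in NP+ cells against 494 ± 49.2 in NP- cells. The log2 fold change was 0.09 (SE 0.18, adjusted p = 0.784, edgeR), with a 95% interval of -0.33 to 0.50, and its sign turned with upper-quartile scaling (-0.17), total counts (-0.22) and the filter at 5 CPM (-0.19). Tek lies on chromosome 4 from 94739289 to 94874976, plus strand, with 4712 bases of exon in 23 blocks.

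Tie1 (ENSMUSG00000033191), the partner receptor, stood at 1375, 1012 and 1253 CPM in NP+ libraries, against 579.6, 1054 and 1166 CPM in NP- libraries. The NP- library of MET-106 was low and the remaining 5 libraries lay close together, so the ratio of NP+ to NP- was 2.37 in MET-106 but 0.961 in MET-107 and 1.07 in MET-108. The mean was 1213 ± 185 CPM in NP+ cells against 933 ± 311 in NP- cells (log2 fold change 0.38, SE 0.27, adjusted p = 0.398, edgeR). Without the NP- library of MET-106 the NP- mean was 1110 CPM and the log2 fold change 0.18. In that library the 6 epithelial markers summed to 565 CPM, where NP+ libraries had 7.85 to 11.4 CPM and the other NP- libraries 14.6 to 30 CPM. Its summed fibroblast and pericyte markers were also the highest, and the part of these cells in its low Tie1 level was not tested. Tie1 lies on the same chromosome as Tek, from 118471191 to 118490061, minus strand, with 4917 bases of exon in 22 blocks.

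The RefSeq promoter table (GRCm38.p6) holds 2 of the 5 members, Tek and Tie1. The 250 bases before the start of Tek are shown because Tek is the receptor through which the other members act and the one whose RNA differed least between the fractions. They are at chr4:94739039-94739288 on the plus strand, with capitals for the core GGAA of ETS factors, regulators of endothelial genes, on either strand.
Tek: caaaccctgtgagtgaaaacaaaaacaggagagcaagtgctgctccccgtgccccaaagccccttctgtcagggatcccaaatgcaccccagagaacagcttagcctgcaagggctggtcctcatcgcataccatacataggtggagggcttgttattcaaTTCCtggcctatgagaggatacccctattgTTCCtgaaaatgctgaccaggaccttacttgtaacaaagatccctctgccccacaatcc
The core was present 2 times before Tek and 7 times before Tie1, and it is in 93.4% of all promoter windows of that length, with a median of 3. A longer ETS form, CCGGAA (12% of windows), the FOXO form GTAAACA (3.17%) and the GATA form AGATAA (9.99%) were in neither window on either strand. These are matches of letters, not binding sites.

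The phosphatase gene Ptprb (ENSMUSG00000020154) stood at 1102, 769 and 1190 CPM in NP+ libraries, against 532, 722 and 654 CPM in NP- libraries. On the TMM scale the groups did not overlap, with the closest pair in MET-107, whose order turned with total counts. The ratio of NP+ to NP- was 2.07 in MET-106, 1.07 in MET-107 and 1.82 in MET-108. The mean was 1020 ± 222 CPM in NP+ cells against 636 ± 96.2 in NP- cells (log2 fold change 0.68, SE 0.22, unadjusted p = 0.0126, adjusted p = 0.145, edgeR). Ptprb lies on chromosome 10 from 116301374 to 116389538, plus strand, and its 11912 bases of exon in 32 blocks make it the longest of the 5 transcripts. The endothelial markers moved the same way: all 10 had a positive log2 fold change, with a median of 0.42, and 5 had an unadjusted p under 0.05 in edgeR's test. Over all genes tested, 9788 of 23989 had a positive log2 fold change, the median was -0.29, and 8.01% were higher at that unadjusted p. Their part in the higher Angpt2 and Ptprb was not tested by the fit, and ratios to Pecam1 are given beside the other ratios.

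Ratios of 2 members within a library do not depend on how libraries are scaled. The ratio of Angpt2 to Angpt1, per kb, was 1212, 2000 and 2164 in NP+ libraries, against 45.7, 72.6 and 1079 in NP- libraries. Within tumours it was higher in NP+ by 4.73, 4.78 and 1.00 on the log2 scale. The values 2000 (NP+, MET-107) and 1079 (NP-, MET-108) rest on Angpt1 counts below the stray level given above. Neither these values nor the differences of 4.78 in MET-107 and 1.00 in MET-108 are therefore measured above background. The ratio's mean difference, which includes both, was 3.51 on the log2 scale (exact two-sided permutation p = 0.1, adjusted p = 0.2 over 8 ratios). That p of 0.1 is the smallest that 3 against 3 libraries allow.

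Ptprb per Tek was 0.71, 0.675 and 0.924 in NP+ libraries and 0.473, 0.525 and 0.523 in NP- libraries. The NP- values lay within a narrow band below all NP+ values, with a mean log2 difference of 0.59 (exact permutation p = 0.1, adjusted p = 0.2). Angpt1 per Tek was 0.00146, 0.00101 and 0.00112 in NP+ libraries and 0.0212, 0.011 and 0.00169 in NP- libraries, lower in NP+ without overlap (exact permutation p = 0.1, adjusted p = 0.2). The same 2 low Angpt1 counts enter here. Angpt2 per Tek was 1.77, 2.01 and 2.42 in NP+ and 0.967, 0.796 and 1.83 in NP-. It was higher in 3 of 3 tumours, but the groups overlapped (exact permutation p = 0.2, adjusted p = 0.32). Tie1 per Tek was 2.14, 2.15 and 2.36 in NP+ and 1.25, 1.86 and 2.26 in NP- (exact permutation p = 0.3, adjusted p = 0.4). The NP+ libraries were alike in this receptor ratio, and the NP- libraries were spread below and beside them.

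Set against Pecam1, neither receptor was higher on average in NP+ cells. Tek per Pecam1 was 0.213, 0.211 and 0.207 in NP+ libraries, against 0.305, 0.312 and 0.231 in NP- libraries. It was lower in NP+ in 3 of 3 tumours without overlap, with a mean log2 difference of -0.41 (exact permutation p = 0.1, adjusted p = 0.2). Tie1 per Pecam1 differed by -0.06 (exact permutation p = 0.9, adjusted p = 0.9) and Ptprb per Pecam1 by 0.18 (exact permutation p = 0.5, adjusted p = 0.571), or by -0.06 without tumour MET-108. Angpt2 per Pecam1, a ratio added after the values were seen and not tested, was 0.377, 0.426 and 0.502 in NP+ and 0.295, 0.248 and 0.423 in NP-, higher within each tumour but with overlapping groups.

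**Figure D3:**
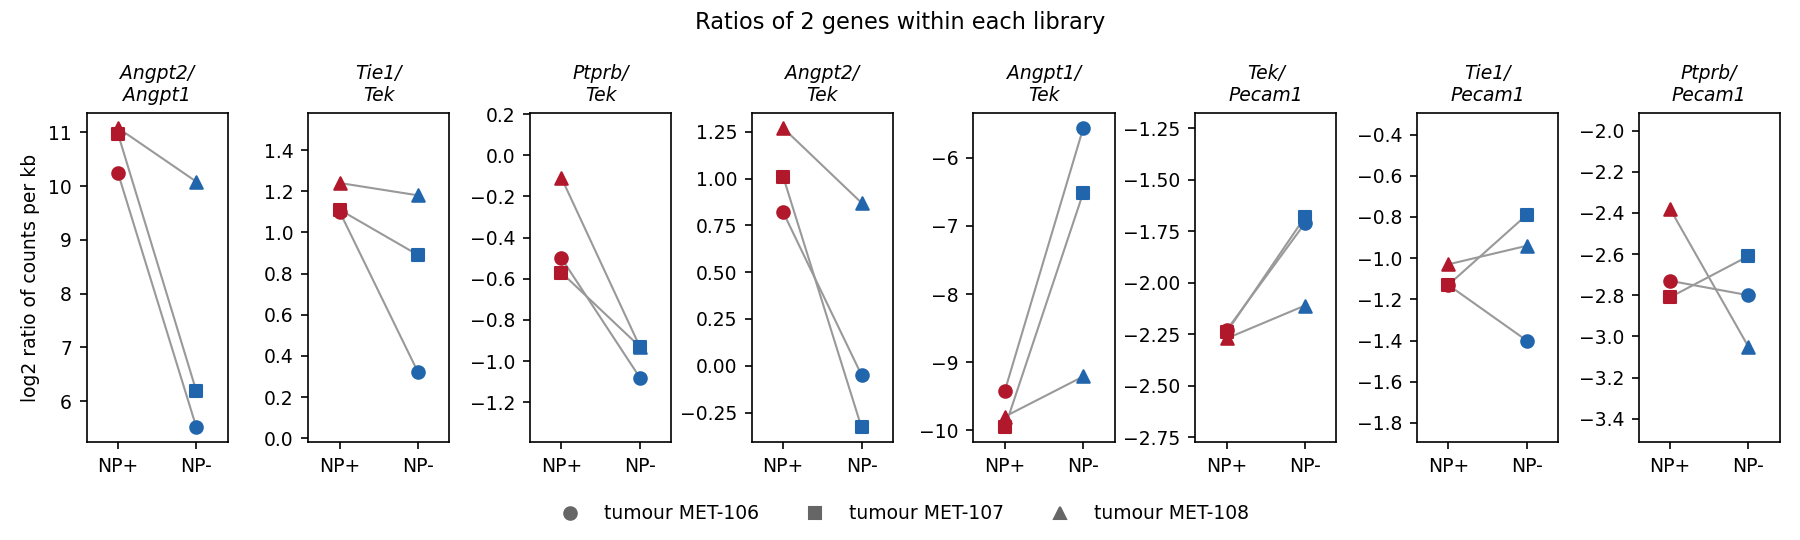
Log2 ratios of counts per kb of 2 genes within each library, NP+ left and NP- right in each panel, with grey lines joining the libraries of a tumour; panels span different ranges. The NP+ libraries lie close together for Angpt2 per Angpt1 and Tek per Pecam1, and the NP- library of MET-108 lies nearest to them.

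The call on 3 members rested on the test used. The authors' deposited table, whose log2 fold changes run NP- over NP+, gives 3.06 for Angpt1 (adjusted p = 0.00663), -0.954 for Angpt2 (adjusted p = 0.0347) and -0.771 for Ptprb (adjusted p = 0.027). It gives -0.17 for Tek (adjusted p = 0.618) and -0.476 for Tie1 (adjusted p = 0.249). In the authors' deposited table, a share of 13.2% of 25298 genes has an adjusted p under 0.05. A DESeq2 fit to the counts called 13.5% of genes with an adjusted p, and among them the same 3 members, with adjusted p of 0.00569 for Angpt1, 0.0467 for Angpt2 and 0.0304 for Ptprb. Limma-voom with the tumour as a block called Angpt1 (adjusted p = 0.0401) and Angpt2 (adjusted p = 0.0307) among 6.52% of all genes. EdgeR without a filter on low counts called Angpt1 (adjusted p = 0.043) and Angpt2 (adjusted p = 0.0454) among 2.74% of all genes. The direction was the same in each of these fits, so what differs between them is the side of the threshold.

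**Figure D4:**
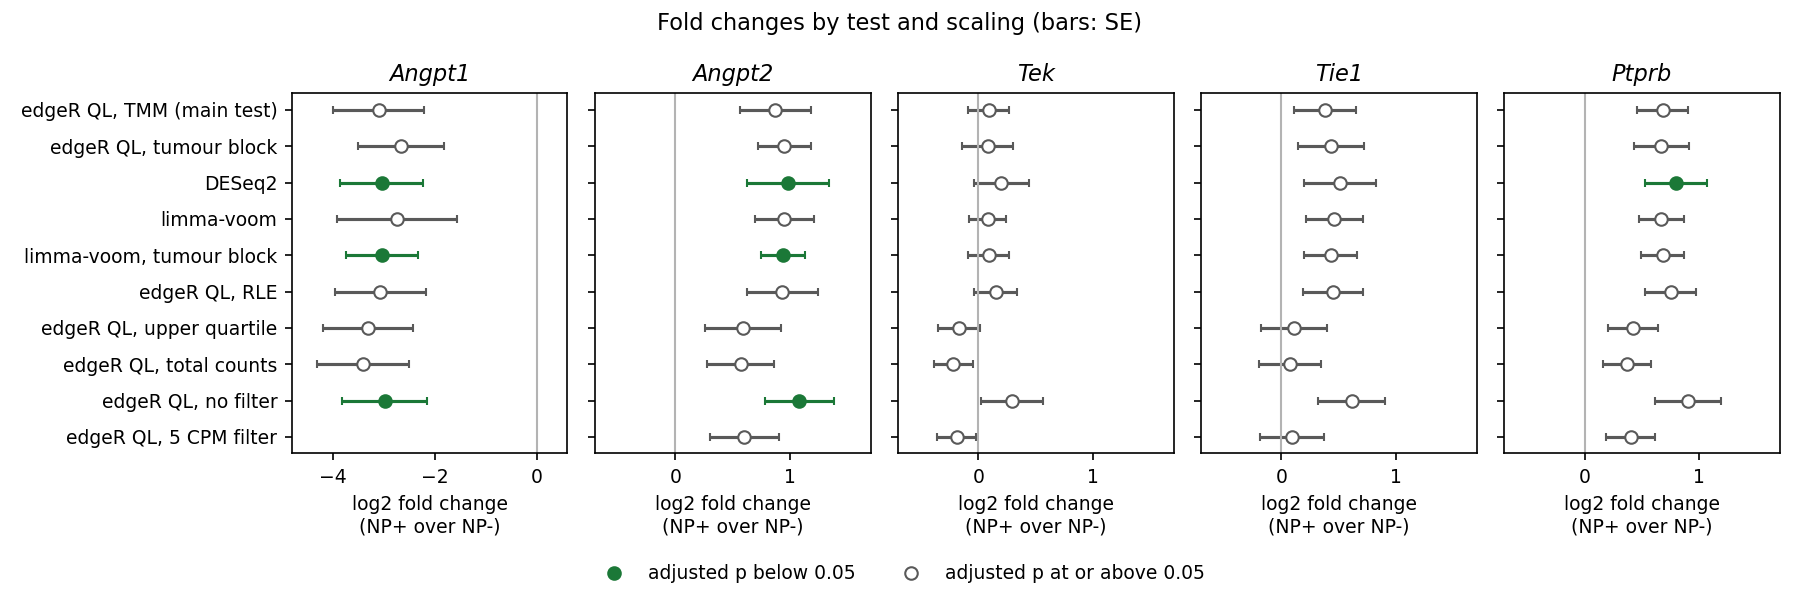
Log2 fold change (NP+ over NP-, bars: SE) of each member under 10 combinations of test, scaling and filter, filled where the adjusted p is under 0.05. Angpt1 is at or below -2.66 and Angpt2 and Ptprb are above 0 in each fit shown, Tek lies on both sides of 0, and Angpt1 has no value under the 5 CPM filter.

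Scaling moved the members together. Over all genes the median was -0.29 (log2 fold change) under TMM, -0.53 under upper-quartile scaling and -0.59 under total counts. Relative to that median, Angpt2 stood at 1.16, 1.12 and 1.16, Ptprb at 0.97, 0.95 and 0.96, Tie1 at 0.67, 0.63 and 0.65, and Tek at 0.37, 0.36 and 0.36 under these 3 scalings. Among genes with at least 5 CPM in 3 libraries the median was -0.02, and the distance from it was 0.61 for Angpt2, 0.42 for Ptprb, 0.11 for Tie1 and -0.18 for Tek.

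The wider pathway was followed in 9 lists with 67 genes, of which 66 were tested. In edgeR's test 0 passed an adjusted p under 0.05, while 10 were higher and 7 lower by DESeq2, a fit that called 13.5% of all genes, 935 higher and 3037 lower. At an unadjusted p under 0.05, 12 (18.2%) were higher in NP+ and 9 (13.6%) lower, against 8.01% and 15.4% of all genes. With total-count or upper-quartile scaling the split was 8 higher and 13 lower, while the median over all genes also fell, to -0.59 and -0.53. Under TMM the log2 fold changes of the 66 genes had a median of 0.14, where the median over all genes was -0.29. These lists were chosen with earlier results known, so the counts are a description.

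Among 7 other ligands and co-receptors, 4 integrin genes were higher and Svep1 and Angpt4 lower at an unadjusted p under 0.05. Of all genes tested, 8.01% were higher and 15.4% lower at that p. The seventh, Lect2, the gene of a secreted Tie1 ligand, had 0.275, 0.0911 and 0.677 CPM in NP+ libraries, against 0.648, 0.748 and 0.168 CPM in NP- libraries (adjusted p = 0.748). Itgb3 stood at 564, 502 and 598 CPM in NP+ libraries, against 123, 243 and 257 CPM in NP- (adjusted p = 0.0916, edgeR). Itgb1, whose product pairs with the alpha-5 integrin that can bind angiopoietins, stood at 2263, 1963 and 2375 CPM in NP+, against 1209, 817 and 373 CPM in NP- (adjusted p = 0.122). On the TMM scale, all 4 integrin genes listed were higher in NP+ in 3 of 3 tumours and without overlap. Of all genes tested, 13.3% were higher without overlap. Svep1, the gene of a large matrix protein that binds Tie1 and is needed for lymphatic vessel growth, stood at 1.13, 1.6 and 1.03 CPM in NP+, against 16.5, 8.94 and 10.8 CPM in NP- (adjusted p = 0.06). The summed lymphatic markers were 291 to 341 CPM in NP+ libraries, against 170.3, 989.7 and 415 CPM in NP- libraries. Among NP- libraries the sum was lowest where Svep1 was highest. Flt4 made up most of the NP+ sums, with 203, 201 and 191 CPM in NP+, against 70.2, 328 and 199 CPM in NP-. All 6 lymphatic markers had a negative log2 fold change. Of these, 3 were lower at an unadjusted p under 0.05 in edgeR's test, where 15.4% of all genes were. The fibroblast and pericyte sums, at 3769 and 815 CPM, were highest in the NP- library of MET-106, as Svep1 was. Between the NP- libraries of MET-107 and MET-108 these sums fell (128 to 56.5 and 242 to 147 CPM), while Svep1 rose. The part of any of these cells in the Svep1 difference was not tested. Per kb the Svep1 means were 0.0777 CPM in NP+ cells and 0.749 in NP- cells, below those of Angpt1 (0.133 and 1.14). The part of stray counts in the Svep1 values was not tested either. The ligand gene Angpt4 was a trace transcript, with 0.229 ± 0.214 CPM in NP+ cells against 1.76 ± 1.04 in NP- cells (adjusted p = 0.154, edgeR). Per kb these means were 0.0979 and 0.756 CPM, also below those of Angpt1. The part of stray counts in the Angpt4 values was not tested.

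Of 4 genes whose products work with VE-PTP, 1 was higher at an unadjusted p under 0.05, where 8.01% of all genes were. This was Kdr, the VEGF receptor 2 gene, with 1578, 1005 and 1259 CPM in NP+ libraries, against 638, 936 and 908 CPM in NP- libraries (adjusted p = 0.169, edgeR). Cdh5, the VE-cadherin gene, stood at 569, 651 and 551 CPM in NP+, against 311, 494 and 502 CPM in NP- (adjusted p = 0.253, edgeR). On the TMM scale it was higher in 3 of 3 tumours. Fgd5, a Cdc42 exchange factor gene, averaged 154 ± 17.6 CPM in NP+ cells against 110.3 ± 39.9 in NP- cells (adjusted p = 0.281).

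Of 10 adaptor genes, 0 were higher and 1 was lower at an unadjusted p under 0.05, against 8.01% and 15.4% of all genes. Their median log2 fold change was 0.18. The lower one was Dok2, the gene of an adaptor that binds active Tie2 and is also used in blood cells, with 0.626 ± 0.283 CPM in NP+ cells against 3.35 ± 2.26 in NP- cells (adjusted p = 0.146, edgeR). The part of the macrophage markers given above in the Dok2 difference was not tested. Ptpn11, the SHP2 phosphatase gene, averaged 75.6 ± 10.3 CPM in NP+ cells against 44.3 ± 25.2 in NP- cells (adjusted p = 0.275). Grb7, an adaptor gene, averaged 0.71 ± 0.195 CPM in NP+ cells against 2.56 ± 2.14 in NP- cells (adjusted p = 0.293).

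On the axis from PI3 kinase through Akt to FOXO, 2 of 12 genes were higher and 0 lower at an unadjusted p under 0.05. The shares of all genes were 8.01% and 15.4%. Pik3cb, a catalytic subunit gene, stood at 36.5, 32.1 and 38.2 CPM in NP+ libraries, against 17.8, 17.3 and 7.1 CPM in NP- (adjusted p = 0.125, edgeR). Akt1, the kinase gene downstream of Tie2, stood at 47.6, 65.3 and 52.3 CPM in NP+, against 37.2, 36.6 and 38.2 CPM in NP- (adjusted p = 0.155). Pik3ca, another catalytic subunit gene, averaged 27.4 ± 2.84 CPM in NP+ cells against 41.2 ± 12.7 in NP- cells (adjusted p = 0.222). Foxo1 averaged 63.6 ± 6.02 CPM in NP+ cells against 56.3 ± 9.46 in NP- cells (adjusted p = 0.584).

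Genes known as FOXO targets went both ways, with a median log2 fold change of -0.08. At an unadjusted p under 0.05, 2 of 12 were higher and 2 lower, against 8.01% and 15.4% of all genes. Esm1, also a tip cell gene, stood at 152, 162 and 193 CPM in NP+ libraries, against 44.8, 62.1 and 68.3 CPM in NP- (adjusted p = 0.06, edgeR). Ccng2, an atypical cyclin gene, stood at 151, 114 and 145 CPM in NP+, against 75.6, 38.7 and 33.4 CPM in NP- (adjusted p = 0.102). Irs2, an insulin receptor substrate gene, stood at 0.247, 0.983 and 0.151 CPM in NP+, against 10.5, 3.41 and 2.72 CPM in NP- (adjusted p = 0.124, edgeR). It was highest in the NP- library of MET-106 that stands apart. Per kb its means were 0.0728 CPM in NP+ and 0.876 in NP-, below those of Angpt1 (0.133 and 1.14). The part of stray counts in the Irs2 values was not tested.

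In the granule that stores angiopoietin-2, Selp, the P-selectin gene, stood at 2356, 1496 and 1053 CPM in NP+ libraries, against 614, 439 and 236 CPM in NP- (adjusted p = 0.0992, edgeR). In the edgeR fit with the tumour as a block, its adjusted p was 0.0319, and it was the one listed gene that passed there. Of 23989 genes, that fit called 2 higher and 13 lower. Vwf, the gene of the granule's main cargo, averaged 775 ± 216 CPM in NP+ cells against 500.4 ± 141 in NP- cells (adjusted p = 0.219). Cd63, a granule membrane gene, averaged 312 ± 34.8 CPM in NP+ cells against 368 ± 137 in NP- cells (adjusted p = 0.581).

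Among factors known to act on Angpt2 or Tek, Ets1 stood at 1224, 969 and 1109 CPM in NP+ libraries, against 574, 538 and 349 CPM in NP- (adjusted p = 0.0893, edgeR). Hif1a, the hypoxia factor gene, stood at 1223, 839 and 1120 CPM in NP+, against 590.4, 506 and 182 CPM in NP- (adjusted p = 0.139). Erg, an endothelial ETS factor gene, averaged 77.9 ± 3.63 CPM in NP+ cells against 59.2 ± 7.55 in NP- cells (adjusted p = 0.218). Of the 8 factors, Ets1 and Hif1a alone had an unadjusted p under 0.05 in this test, where 8.01% of all genes were higher.

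**Figure D5:**
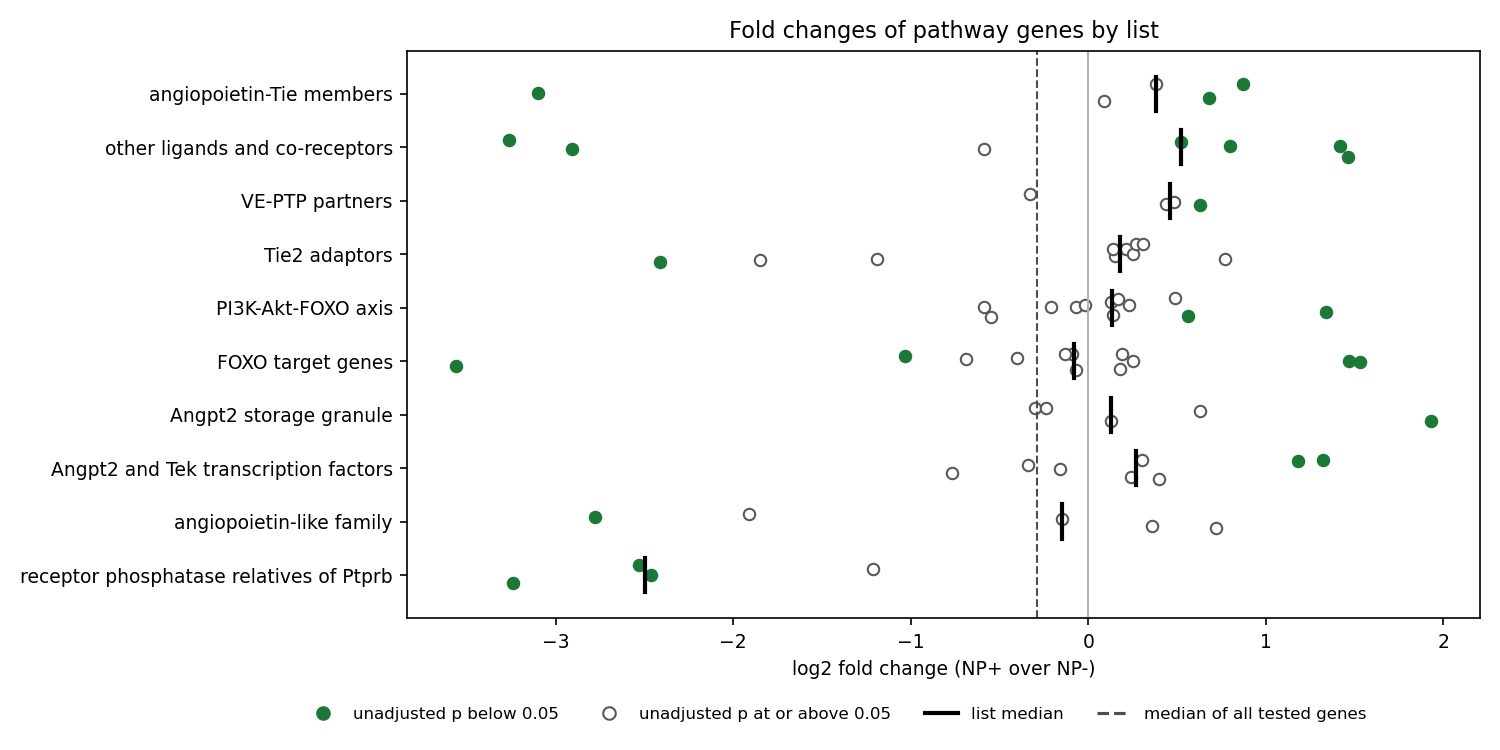
Log2 fold change (NP+ over NP-) of each tested gene, 1 point a gene, in the 5 members and the 9 lists, with filled points for an unadjusted p under 0.05, thick bars for list medians and a dashed line for the median of all tested genes (-0.29). The integrin genes lie at 0.52 to 1.46, to the right of the dashed line.

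The patterns of the members across the 6 libraries were set against those of 9196 genes with a mean of at least 10 CPM, by the root mean square (RMS) difference of centred log2 levels. Among the members, Tie1 and Ptprb were the most alike (0.257) and Angpt1 and Angpt2 the least (1.9). Angpt2 lay closest to Mcam, an endothelial and mural adhesion gene (0.127), with 1907, 1718 and 1885 CPM in NP+ libraries, against 792, 886 and 1620 CPM in NP- libraries. Eaf1 (0.135) and Plekho2 (0.141) followed, and all 3 shared the high NP- value in MET-108.

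Tek lay closest to Clcn5, a chloride-proton exchanger gene (0.0389), then Clpb and Rab3gap1. Tie1 lay closest to Khnyn (0.0419), then Jak3, a cytokine receptor kinase gene, and Myh9, a non-muscle myosin gene. Ptprb lay closest to Mapk11, a p38 kinase gene (0.0711), then Myo1c and Gys1. The genes nearest to Angpt1 lay further off, and were Ccnd2, the cyclin D2 gene (0.366), Plekha2 (0.411) and Gsn, the gelsolin gene (0.433). The 0.5 added to each CPM is close to Angpt1's own NP+ levels of 0.796, 0.401 and 0.502 CPM, so its distances depend in part on that offset. With 6 libraries from 3 tumours these are descriptions of likeness.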

How the data were processed

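RNA was measured in 6 libraries of sorted cells, made with SMART-Seq v4 and read as 2 x 150 bp, per the labels' protocols; this kit marks neither strand nor molecules. The authors deposited whole-number counts per gene. The submitters' processing notes name GRCm38 (mm10) and the tools STAR 2.5.2b, Trimmomatic 0.036, DESeq2 and featureCounts (Subread 1.5.2). The sources used here give no strand, multi-mapping or annotation setting. The authors' deposited table adds a signal per library (counts divided by a size factor), log2 fold changes of NP- over NP+, p-values and adjusted p-values. Of its 156426 signal values, 100% came out whole (tolerance 0.01 reads) and 100% matched the counts; an edgeR fit on those reads, added after seeing the data, called 3 genes higher and 4 lower.

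Genes were tested with edgeR's quasi-likelihood method (edgeR 4.0.16, R 4.3.3), unblocked, after TMM scaling and filterByExpr (minimum count 10), on 23989 genes, with Benjamini-Hochberg adjustment over all of them and a threshold of 0.05. DESeq2 1.42.0 and limma 3.58.1 served as alternatives, with other scalings, filters, left-out libraries and the tumour as a block. The fit was tested on simulated data. SE is the log2 fold change over the square root of F, and the 95% interval uses the fit's degrees of freedom. Ratios add 0.5 to each count and use exact permutation tests, which ignore the pairing. The labels pair the libraries by tumour; same-tumour deviations correlated at 0.268, 0.211 and 0.0431. The unblocked p-values rest on the spread between the libraries within each group, which are treated as independent. Those of the blocked fits rest on the spread of differences within the 3 tumours. Poisson intervals cover counting error only.

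Members, lists and tests were chosen with earlier results of these data known. Named are the members, Pecam1, Ptprc, genes overlapping a member, up to 3 genes with the smallest p per list and the 3 most alike genes per member (log2 of CPM + 0.5), except 1 gene that is not reported here; the markers Pdgfrb and Gp1bb, Angpt4, Lect2 and Foxo1 were named after their values were seen. The symbol Itgam has 2 IDs, of which the first was used. Coordinates come from the count files, and the promoter from RefSeq's table.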

Additional observations from a re-analysis of the deposited data

How the results depend on the processing

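Depth limits Angpt1 alone among the members, since its NP+ libraries held 20 to 29 counts. The edgeR counts of 3 genes higher and 4 lower among all genes, and of 0 and 0 among the 66 pathway genes, moved with the setting. They were 935 and 3037 (pathway 10 and 7) with DESeq2, 486 and 1077 (8 and 3) with limma-voom and the tumour block, 525 and 686 (9 and 3) without a low-count filter, and 18 and 87 (1 and 1) with the 5 CPM filter. Limma-voom without the block gave 12 higher genes (pathway 1, Esm1), the edgeR block 13 lower (pathway 1 higher, Selp), upper-quartile scaling 18 lower (pathway 1 lower, Svep1) and total counts 9 lower. At an unadjusted p under 0.05, 4 pathway genes were lower under the 5 CPM filter. Leaving out 1 library or tumour gave 0 to 968 genes higher and 0 to 1352 lower, the most without the NP- library of MET-106, and pathway counts of 0 to 8 higher and 0 to 1 lower, with 5 to 11 lower at an unadjusted p under 0.05. The cause was not tested.

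The log2 fold change of Angpt1 was -3.04 with DESeq2, -3.03 with limma-voom and the block and -2.98 without a filter, that of Angpt2 0.98, 0.94 and 1.08 in the same fits, and that of Ptprb 0.80 with DESeq2, each past the threshold there. Tek was at -0.19 with the 5 CPM filter, -0.22 with total counts and -0.17 with upper-quartile scaling. Without 1 library or tumour, the ranges were -3.59 to -2.36 for Angpt1, 0.70 to 1.34 for Angpt2, 0.07 to 0.25 for Tek, 0.18 to 0.67 for Tie1 and 0.62 to 0.95 for Ptprb. Adding the tumour to edgeR as a replicate block gave -2.66, 0.95, 0.08, 0.43 and 0.67 for Angpt1, Angpt2, Tek, Tie1 and Ptprb and changed no member's call. Left-out libraries moved the log2 difference of Tie1 per Pecam1 over -0.24 to 0.08 and of Ptprb per Pecam1 over -0.06 to 0.37, and the other 6 ratios kept their sign in the alternatives run. With a 5 CPM minimum, 13 of the 15 most alike genes were shared.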

Other observations

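The relatives of the members were mostly trace transcripts in these cells. Of the 6 angiopoietin-like genes, Angptl4, a lipoprotein lipase inhibitor gene, was the abundant one, with 388, 438 and 553 CPM in NP+ libraries, against 386, 295 and 395 CPM in NP- libraries (adjusted p = 0.3, edgeR). Angptl2 stood at 4.78, 4.48 and 4.54 CPM in NP+ libraries, against 80.9, 12.3 and 1.55 CPM in NP- libraries (adjusted p = 0.176), with its highest value in the library whose fibroblast markers summed to 3769 CPM.

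Of the 4 receptor phosphatases related to VE-PTP, 3 were lower in NP+ at an unadjusted p under 0.05, where 15.4% of all genes were. Ptpro averaged 0.489 ± 0.291 CPM in NP+ cells against 2.86 ± 1.02 in NP- cells (adjusted p = 0.142), Ptprh 0.223 ± 0.138 against 2.16 ± 1.9 CPM (adjusted p = 0.142) and Ptprq 0.994 ± 0.946 against 5.54 ± 5.09 CPM (adjusted p = 0.179). The stray counts of olfactory receptor genes were also denser in NP- libraries, and their part in these low values was not tested.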
